A study of Ovis aries with 40 samples.

Results

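CATHL1B and DEFB were the antimicrobial peptide genes described here in the longissimus dorsi, the long skeletal muscle of the back, of fetal and young sheep. CATHL1B is a cathelicidin and DEFB a beta-defensin. They were taken as the probes of these names on the array together with any probe annotated as a cathelicidin or defensin, and the choice was selected on the level in Ujumqin after birth, which was lower than before it. The annotation search added no probe, which left 2 genes and 3 probes among the 14358 names and 15008 probes of the array. CATHL1B had 2 probes, A_70_P051376 and A_70_P051377, which the array file lists as DODE, for a dodecapeptide, and which its RefSeq accession ties to CATHL1B. The probe of DEFB, A_70_P032741, carries no gene name in the array file, which gives only an expressed sequence tag from adult sheep skin. Its name comes from a list of the study, made by similarity to a bovine beta-defensin and limited to probes that differed between the breeds at 100 d, so the name is less certain than that of CATHL1B and its breed difference at 100 d is given below without a test.

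Texel sheep, a double-muscled breed, were sampled at 5 fetal stages, which began with 70 d of gestation, passed through 85, 100 and 120 d and ended with 135 d. Ujumqin sheep, an indigenous Chinese breed, were sampled at the same stages, at birth and at 1 and 2 months. The groups are called T70 to T135 and U70 to U135 by breed and day, and Ubirth, U1mo and U2mo after that. Each group held 3 animals with 1 array each, except T100 with 4. The ewes were purebred, brought into oestrus by hormone treatment and inseminated with semen of their own breed, and the labels name no other treatment. The fetuses came from 3 ewes per breed and stage, and since T100 held 4, at least 2 of these may come from the same ewe, the labels naming none. T120 held males alone, U120, U135 and U2mo females alone, and the other groups both sexes. Breed differences cover the whole genetic background of each breed, and the 9 arrays after birth were all Ujumqin.

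Cathelicidins are made as inactive precursors with a conserved cathelin domain, stored in the granules of neutrophils and their bone marrow precursors, and cut on release into short peptides that damage bacterial membranes. Ruminants carry a cluster of such genes, whose products include bactenecins and a cyclic dodecapeptide. Beta-defensins are small cationic peptides held together by disulphide bonds and are known mainly from epithelia such as skin, airway and gut. Skeletal muscle fibres are not a usual source of either.

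Each probe holds the hexamer AATAAA, the usual polyadenylation signal near the 3' end of a transcript, in capitals below. This hexamer was searched in the sense direction only and was present in 845 of the 15008 probes (5.63%). The windows of 30 bases show what each spot captured, and those of 3 further cathelicidin genes of the array, BAC5, BAC7.5 (CATHL3 in RefSeq) and SC5, are shown beside them because their levels are compared below.
CATHL1B: ctggatctgaaaAATAAActcttgtgacat
DEFB: aaccgttgttttAATAAAaggattttgtga
BAC5: agtcagcatccaaaaAATAAAatcttgtgg
BAC7.5: tggacggtgaaaAATAAAttctggtgaaga
SC5: tggactctgagaAATAAAttcttgtgagaa

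The 2 CATHL1B probes overlap by 59 bases of 60 and are close to a repeat of 1 measurement. At its best shift, the CATHL1B probe A_70_P051376 matched that of BAC7.5 at 36 of 60 overlapping bases with a longest shared run of 11, that of BAC5 at 27 of 55 with a run of 9 and that of SC5 at 30 of 55 with a run of 8. Against the DEFB probe it matched at 22 of 60 bases with a run of 6. How far transcripts of the related genes bind each other's probes was not tested. In RefSeq's sheep assembly ARS-UI_Ramb_v3.0, CATHL1B, CATHL3, BAC5 and SC5 stand in this order on 1 chromosome, with LOC114109383 and LOC105607776 between CATHL1B and CATHL3 and the non-coding LOC101120785 between BAC5 and SC5. No coordinates are given, since the build of the array's design is not given in the sources used here.

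Levels are log2 values of quantile-normalized signal, 1 unit being a doubling, and they are compared between arrays for a given probe only. Array medians before normalization lay between 233.6 and 708.3 for fetuses and between 217.6 and 359.1 for lambs, and the number of arrays limits the precision. Over the 14480 probes tested, those well above background on at least 1 array, the median difference between groups was close to 0. Quantile normalization of all arrays together brings this about, so it says nothing of how alike the groups were before. The 7 skeletal muscle markers of 26 listed that were on the array were all well above background, with a summed linear signal of 817858 to 1377340 over the arrays. A call means a limma adjusted p under 0.05 with a difference of 2-fold or more. The 8 arrays of a slide were scanned together, so values within a slide are given for part of the comparisons in which a slide held both groups.

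CATHL1B rose by 10.26 log2 units in Ujumqin fetuses between 70 and 120 d. In both breeds its mean was highest at 120 d and lower at 135 d, and in Ujumqin 2 of 3 arrays were not well above background 1 month after birth. It also varied widely between animals of the same group. The pooled within-group SD was 1.77 for A_70_P051376, above that of 99.8% of the tested probes, whose median was 0.31. Its levels over the 40 arrays spanned 15.30 log2 units, from 1.36 to 16.66, and 35 of the 40 arrays were well above background. All values that follow are for this probe. The other probe, A_70_P051377, gave values that correlated with it at r = 0.998 over the 40 arrays.

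In Ujumqin fetuses, CATHL1B stood at 3.05, 3.48 and 4.98 in U70, the second of these not well above background. It stood at 7.51, 8.36 and 11.36 in U85 and at 12.29, 12.32 and 11.34 in U100. In U120 it reached 12.30, 15.18 and 14.80. Every U85 fetus lay above every U70 fetus, U100 reached over the highest U85 fetus without clearing it, and U120 overlapped U100 by a narrow margin at its lowest fetus. The level differed between the 4 stages (F test of limma, adjusted p = 0.00027, n = 12), and U120 was 10.26 above U70 (SE 1.00, adjusted p = 5.3e-05). The size rests on U70, where the signal was close to background, and it was 6.90 under another background correction (normexp with an offset, adjusted p = 0.00032). Of all tested probes 22.7% passed the F test and 12.1% were called between 120 and 70 d, with 6.6% of all higher at 120 d. The rise of 5.24 from U70 to U85 (SE 1.00, 95% interval 3.04 to 7.45) was measured on 1 slide with all 6 arrays and did not pass (adjusted p = 0.0671), and it was 2.20 under the other correction. The differences of 2.91 between U100 and U85 (adjusted p = 0.147) and of 2.11 between U120 and U100 (adjusted p = 0.329) did not pass either. The shares called over all probes were 0.186%, 1.13% and 1.31% for these 3 steps. Between U120 and U100 the difference within their common slide was 2.26. No slide held both U70 and U120.

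In Texel fetuses, the values were 8.09, 5.62 and 5.31 in T70, 13.52, 11.29 and 9.30 in T85, and 11.92, 12.35, 11.32 and 16.66 in T100. In T120 they were 15.82, 14.33 and 14.32, and in T135 12.57, 8.56 and 12.64. T85 lay wholly above T70, T120 wholly above T135, and the fourth T100 fetus above every other array of the series. The 5 stages differed (F test of limma, adjusted p = 0.0038, n = 16), where 38.4% of the tested probes did. T135 was 4.92 above T70 (SE 1.46, 30.3-fold, adjusted p = 0.0172), in a comparison that called 21.2% of the probes, 10.3% higher at 135 d. No slide held arrays of both T70 and T135. This call did not hold after leaving out any of 4 arrays, T70 replicates 2 and 3 and T135 replicates 1 and 3, with adjusted p-values of 0.0568 to 0.0668, or under the other background correction, where it was 3.42 (adjusted p = 0.0675). None of the successive steps was called, with shares of 0.124%, 0.753%, 3.71% and 0.304% over all probes in order of stage. The difference between T85 and T70 was 5.03 (SE 1.46, adjusted p = 0.30), and 6.06 within their common slide. T135 minus T120 was -3.56 (adjusted p = 0.219), and -1.75 within their common slide, which held 1 T135 and 2 T120 arrays.

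The summed signal of 3 neutrophil markers (ITGB2, LTF and ITGAM of 28 listed) moved with these stages. It was 610 to 802 in U70 and 933 to 2947 in U120, and 654 to 1046 in T70, 2675 to 4207 in T120 and 794 to 2138 in T135. ITGB2, the integrin chain shared by leukocytes, had means of 9.37 in U70 and 9.38 in U120. In Ujumqin LTF alone of the 3 was called between these stages, 5.98 higher in U120, in a comparison that called 12.1% of all tested probes. The median difference of the 3 was 0.02 there, so they did not rise together. The part of these markers in the level of CATHL1B was not tested.

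In all, 4 of 15 tests of the 3 probes were called between Ujumqin stages and 4 of 18 between Texel stages. All 8 were those of the 2 CATHL1B probes, in the F test and the widest contrast. Over all tested probes these called 22.7% and 12.1% in Ujumqin and 38.4% and 21.2% in Texel. The 2 CATHL1B probes are close to a repeat of 1 measurement, so their calls do not count separately.

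**Figure D1:**
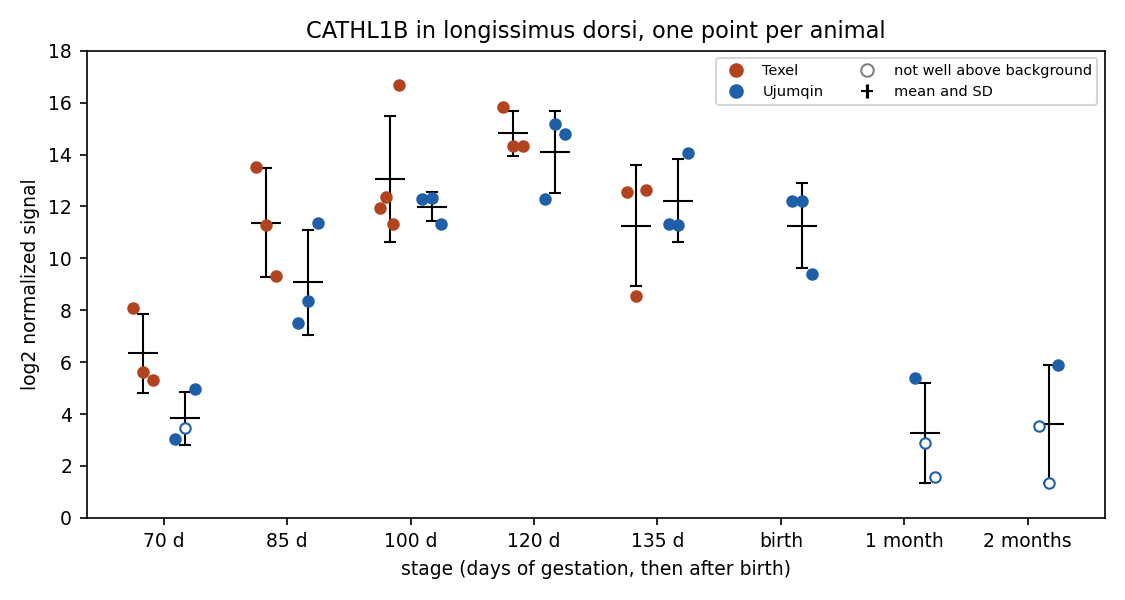
CATHL1B (probe A_70_P051376) on the log2 scale of normalized signal against stage, with 1 point per animal, Texel and Ujumqin side by side, open points where the spot was not well above background, and the mean with SD of each group. Group means climb from 6.34 in T70 and 3.83 in U70 to 14.82 in T120 and 14.10 in U120, and stand at 3.27 and 3.60 at 1 and 2 months.

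The order of the group means was T120 (14.82 ± 0.86, SD, n = 3), U120 (14.10 ± 1.56, SD, n = 3), T100 (13.07 ± 2.43, SD, n = 4), U135 (12.23 ± 1.60, SD, n = 3), U100 (11.99 ± 0.56, SD, n = 3) and T85 (11.37 ± 2.11, SD, n = 3). Ubirth (11.26 ± 1.63, SD, n = 3), T135 (11.26 ± 2.34, SD, n = 3), U85 (9.08 ± 2.02, SD, n = 3), T70 (6.34 ± 1.52, SD, n = 3) and U70 (3.83 ± 1.01, SD, n = 3) came next, and U2mo (3.60 ± 2.27, SD, n = 3) and U1mo (3.27 ± 1.94, SD, n = 3) were lowest. Neighbours in this order overlapped in their values, with T70 and U70 as the exception.

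Between the breeds, CATHL1B was not called at any stage. At 70 d the 3 Texel fetuses were above the 3 Ujumqin fetuses without overlap, by 2.51 (SE 0.82, 95% interval 0.56 to 4.45, adjusted p = 0.204), or 0.62 under the other background correction. At that stage 0.117% of the tested probes were called. T70 and U70 were on different slides, so that breed and slide cannot be told apart there. The difference was 2.29 at 85 d (95% interval -0.99 to 5.57, adjusted p = 0.477), where 0.0207% of the probes were called, and 0.23 within the slide that held 1 T85 and 3 U85 arrays. At 100 d it was 1.08 (95% interval -1.77 to 3.93, adjusted p = 0.723; 0.0138% of the probes called). It was -0.12 without the fourth T100 fetus. At 120 d it was 0.73 (95% interval -1.28 to 2.73, adjusted p = 0.781; 0.0345% called) and at 135 d -0.97 (95% interval -4.04 to 2.11, adjusted p = 0.937; 0.0207% called). Within slides that held both breeds the differences were 1.16 at 100 d, 0.23 at 120 d and -1.63 at 135 d. U135 is also a reference for the lower level after birth that chose the gene. The intervals at these last 4 stages include 0 and have upper limits of 2.11 to 5.57, so that a difference of several fold was not detectable with these numbers of animals. The breed difference did not pass a test of change over the 5 stages (adjusted p = 0.712; 0.166% of the probes called). Males minus females within groups was -1.20 (adjusted p = 1.00; 0.0414% called).

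**Figure D2:**
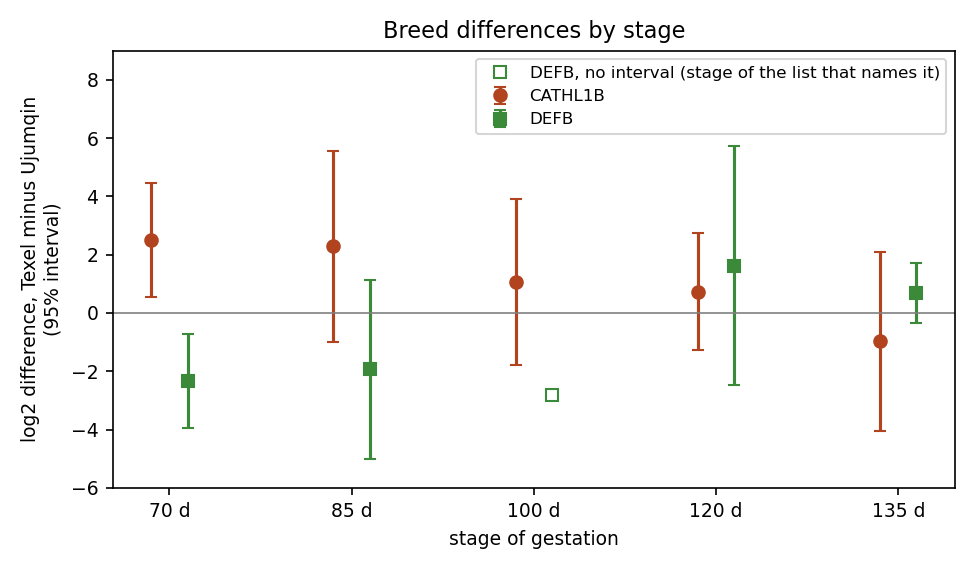
Texel minus Ujumqin on the log2 scale at each stage of gestation for CATHL1B (A_70_P051376) and DEFB (A_70_P032741), with 95% intervals of the fit at that stage. CATHL1B moves from 2.51 at 70 d to -0.97 at 135 d, while DEFB lies below 0 at 70, 85 and 100 d and above 0 at 120 and 135 d; the open square is the DEFB difference at the stage of the list that names the probe, drawn without an interval.

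After birth, the values that chose the members were as follows, with no test. CATHL1B stood at 11.33, 11.27 and 14.08 in U135, and at 12.20, 12.20 and 9.38 in Ubirth. In U1mo it was 5.37, 2.87 and 1.56, and in U2mo 3.53, 1.36 and 5.91, with 1 of the 3 arrays well above background in either group. Every lamb of 1 or 2 months was below every newborn. U1mo minus Ubirth was -7.99 on the log2 scale. Its size rests on the level of spots at background, and it was -3.96 under the other background correction, in which a fixed offset is added to the signal. U2mo differed from U1mo by 0.33, and U2mo from U135 by -8.63 on their common slide. Between Ubirth and U135 the difference was -0.97, with overlap. Of the 3 member probes, 2 were 2-fold or more lower in U1mo than in Ubirth without overlap, both of CATHL1B, as were 3.89% of all tested probes.

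In whole muscle, fewer cells of a type and less RNA per cell cannot be told apart. The summed signal of the erythroid markers HBB, EPOR and CA1, the 3 of 26 listed that were on the array, was lower after birth, which was HBB, the beta-globin gene, alone. The sum was 92639 to 138319 in U135, 9403 to 90876 in Ubirth, 4877 to 14329 in U1mo and 665 to 2625 in U2mo. Means of HBB were 16.73, 15.29, 13.09 and 10.46 in these groups, still lower at 2 months than at 1. CATHL1B had 1 of 3 arrays well above background in either of these last 2 groups, so a further fall of it could not be seen there. EPOR, the erythropoietin receptor, had means of 7.04, 8.10, 7.99 and 7.38, and CA1 was well above background on 1 of these 12 arrays. The 3 neutrophil markers went different ways. LTF stood at 8.58, 7.08 and 6.73 in Ubirth and lower, without overlap, at 5.85, 5.90 and 5.25 in U1mo and 6.58, 6.47 and 5.60 in U2mo, while ITGB2 had means of 9.28, 9.86 and 10.52 in these groups. Their summed signal, mostly ITGB2, was 761 to 1034 in Ubirth, 787 to 1370 in U1mo and 1339 to 2095 in U2mo. The part of these cells in the level of CATHL1B was not tested.

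DEFB was well above background on all 40 arrays and was not called between any stages. Its levels spanned 7.11 log2 units, from 4.60 to 11.71, and its pooled within-group SD of 1.67 was above that of 99.7% of the tested probes. In Ujumqin fetuses the values were 11.30, 10.63 and 8.63 in U70, 11.71, 8.62 and 10.21 in U85, 11.42, 10.69 and 9.92 in U100 and 10.35, 4.60 and 8.95 in U120. All 4 groups overlapped, and the second U120 fetus was the lowest of the series. In Texel fetuses they were 7.19, 8.14 and 8.23 in T70, 10.34, 5.85 and 8.53 in T85, 7.02, 7.95, 10.13 and 6.34 in T100, 11.29, 7.16 and 10.32 in T120 and 10.34, 9.37 and 10.73 in T135. Here T135 lay above T70 without overlap, by 2.30 (adjusted p = 0.151), and the other groups overlapped. Neither F test passed (adjusted p = 0.305 in Texel and 0.388 in Ujumqin), and no stage contrast was called. Between U120 and U70 the difference was -2.22 (adjusted p = 0.238).

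**Figure D3:**
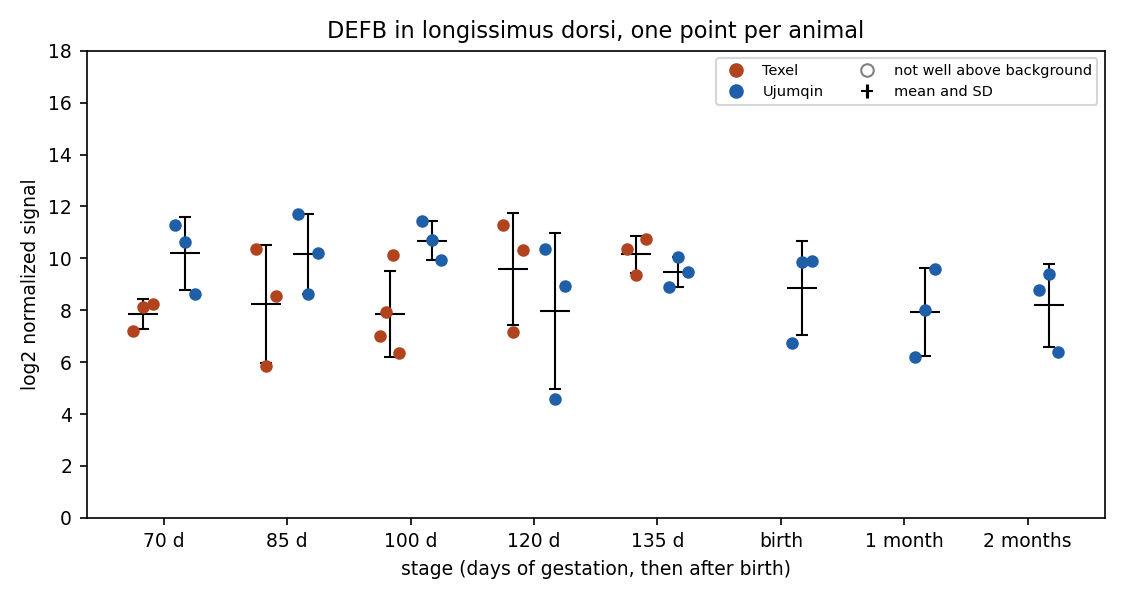
DEFB (probe A_70_P032741) on the log2 scale of normalized signal against stage, drawn as for CATHL1B with 1 point per animal and the mean with SD of each group. The group means lie between 7.85 in T70 and 10.68 in U100 and the 3 U120 fetuses are the most spread, from 4.60 to 10.35.

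The group means of DEFB ran from U100 (10.68 ± 0.75, SD, n = 3), U70 (10.19 ± 1.39, SD, n = 3), U85 (10.18 ± 1.55, SD, n = 3) and T135 (10.15 ± 0.70, SD, n = 3) at the top to T100 (7.86 ± 1.65, SD, n = 4) and T70 (7.85 ± 0.58, SD, n = 3) at the bottom. All neighbours in the order of the 13 groups overlapped. At 70 d the Texel fetuses lay below the Ujumqin fetuses without overlap, by -2.34 (SE 0.68, 95% interval -3.95 to -0.73, adjusted p = 0.168), again with breed and slide not to be told apart. At 85 d the difference was -1.94 (95% interval -5.01 to 1.13, adjusted p = 0.514), and -1.65 within a slide. At 100 d, the stage of the list from which the probe has its name, it was -2.82, with 1 of the 4 T100 fetuses above the lowest U100 fetus. Within the slide that held 3 T100 arrays and 1 U100 array, the difference was -3.28. At 120 d it was 1.62 (95% interval -2.48 to 5.73, adjusted p = 0.758), 0.78 within a slide, and -0.06 without the second U120 fetus. At 135 d it was 0.68 (95% interval -0.35 to 1.72, adjusted p = 0.873), and 0.59 within a slide. U135 is also a reference for the lower level after birth by which the members were chosen. The test of change over the stages did not pass (adjusted p = 0.407, and it includes the 100 d values), nor did that of sex (male minus female 0.58, adjusted p = 1.00). By limma, 0 of the 14 breed values of the 3 probes other than DEFB at 100 d were called, the 135 d values with U135 included. Those at 70 d, 3 in number, had an unadjusted p under 0.05, as did 2490 of the 14480 tested probes at that stage. They were those of DEFB and of both CATHL1B probes, which are close to a repeat of 1 measurement.

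With all arrays kept, DEFB after birth did not share the step of CATHL1B. It stood at 8.89, 10.04 and 9.46 in U135, 6.75, 9.88 and 9.90 in Ubirth, 6.19, 8.01 and 9.59 in U1mo and 8.78, 9.41 and 6.38 in U2mo. U1mo minus Ubirth was -0.91 and U2mo minus U135 on their common slide -1.27, both within overlapping groups. With an array left out, U1mo minus Ubirth ran from -1.96 to -0.04. Without the first Ubirth newborn, at 6.75, every U1mo lamb lay below every newborn left.

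The other cathelicidin genes of the array were also higher at 120 d than at 70 d in Ujumqin. From U70 to U85 CATHL1B differed by 5.24, BAC5 by 1.86, SC5 by 0.79 and BAC7.5 by -0.56, none of them called. The CATHL1B step rests on U70 spots close to background and was 2.20 under the other background correction. Whether the steps differed between the genes was not tested. BAC5 encodes a proline-rich bactenecin, BAC7.5 another of the same kind, and SC5 a cathelicidin known as SMAP. BAC5 (A_70_P039656) was at 5.92, 6.08 and 6.55 in U70 and at 11.32, 14.002 and 13.75 in U120, a difference of 6.84 (adjusted p = 0.00033). It was at 7.02, 5.03 and 5.63 in T70 and at 11.39, 7.93 and 11.58 in T135, 4.41 higher (adjusted p = 0.0152), a call lost with adjusted p-values of 0.0558 to 0.0615 without T70 replicate 2, T135 replicate 1 or T135 replicate 3. The call was also lost under the other background correction, where the difference was 2.79 (limma adjusted p = 0.0895). BAC7.5 rose by 3.89 between U70 and U120 (adjusted p = 0.0041) and SC5 by 2.45 (adjusted p = 0.0265), although the F test over Ujumqin stages did not pass for SC5 (adjusted p = 0.112). The SC5 call was lost under several alternatives, with an adjusted p of 0.117 with sex as a covariate and 0.0515 with slide as a random block. Between T70 and T135, BAC7.5 differed by 3.17 (adjusted p = 0.0646) and SC5 by 1.60 (adjusted p = 0.275). The F test over Texel stages passed for BAC7.5 (adjusted p = 0.0081) and SC5 (adjusted p = 0.0298). For SC5 this F test did not pass under the other background correction (adjusted p = 0.0520). It also did not pass without T70 replicate 1, 2 or 3 or T120 replicate 1 or 3, with adjusted p-values of 0.0627 to 0.0749. At 1 month BAC5 stood at 4.65, 4.49 and 3.48 against 11.68, 10.81 and 8.57 at birth, a difference of -6.15. BAC7.5 was not well above background on any U1mo array. Against the lowest signal well above background on these arrays, it was about 113-fold lower there than at birth. That size also rests on the level of spots at background. SC5 was at 7.36, 7.33 and 7.30 against 9.44, 9.999 and 8.62, a difference of -2.02.

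BAC7.5 was the one of these genes called between the breeds, at 70 d. It was at 7.48, 7.16 and 7.16 in T70 and at 9.33, 9.28 and 8.76 in U70, a difference of -1.85 (SE 0.20, adjusted p = 0.0481), on different slides. CATHL1B differed there by 2.51 in the other direction, without passing. The adjusted p was over 0.05 under most alternatives, up to 0.465 in a fit of all 10 fetal groups together, so the call was marginal.

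**Figure D4:**
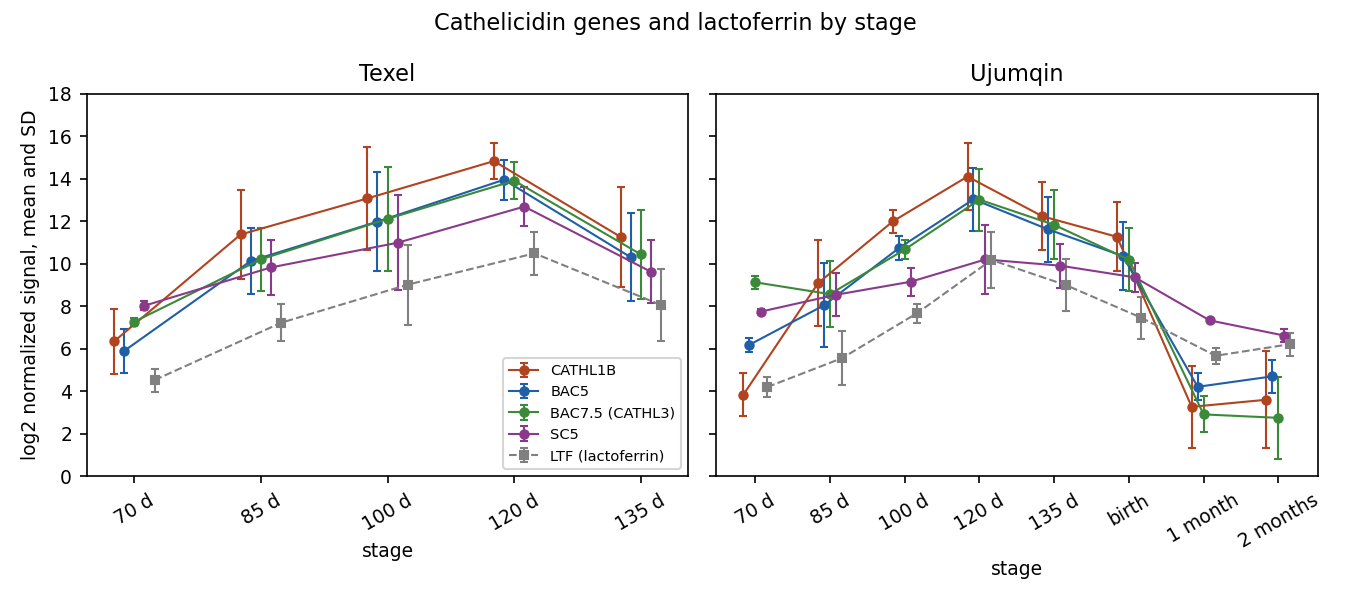
Mean and SD of the log2 normalized signal by stage for CATHL1B, BAC5, BAC7.5, SC5 and LTF (lactoferrin, grey squares) in Texel (left) and Ujumqin (right), each a level of its own probe, so that the height of 1 line against another has no meaning. In either breed all 5 lines have their highest mean at 120 d, and in Ujumqin they are lower at 1 month than at birth.

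Over the 40 arrays, which share stages and slides, CATHL1B correlated at r = 0.975 with BAC5, 0.907 with BAC7.5 and 0.864 with SC5, and the deviations of single arrays from their group means correlated at 0.928, 0.909 and 0.730. Exceptions were U120 replicate 3, with 14.80 for CATHL1B and the lowest SC5 of its group at 8.64, and U70 replicate 3, with the highest CATHL1B of its group at 4.98 and the lowest BAC7.5 at 8.76. With DEFB, r was -0.03 over the arrays and -0.34 over the deviations. Without the fourth T100 fetus the correlations of the deviations were 0.911, 0.886, 0.648 and -0.28.

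**Figure D5:**
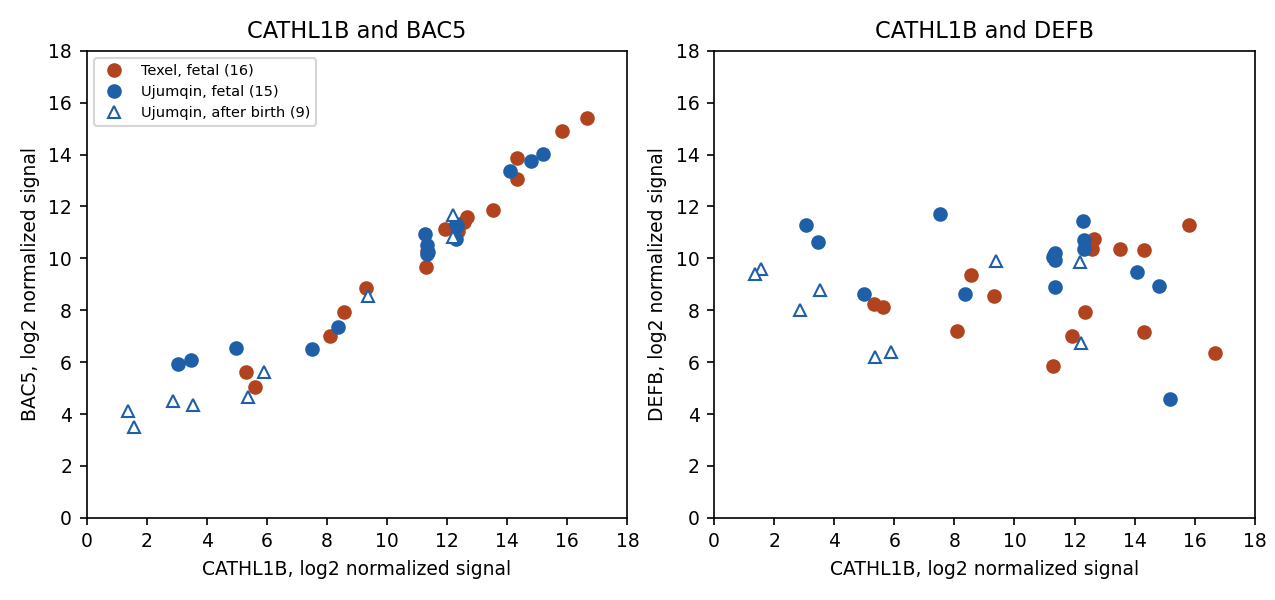
BAC5 (left) and DEFB (right) against CATHL1B on 40 arrays, all on the log2 scale of normalized signal, with Texel and Ujumqin fetuses as circles and lambs after birth as triangles. BAC5 follows CATHL1B (r = 0.975), with a flatter course among its dimmest arrays, while DEFB, which runs from 4.60 to 11.71, does not follow it (r = -0.03).

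The pattern most like that of CATHL1B, by Pearson's r over the 40 arrays among 898 other named genes, was that of BAC5, then CATHL3 (BAC7.5), SC5 and LTF at 0.86. LTF encodes lactoferrin, an iron-binding protein of neutrophil secondary granules and of milk. CD40 (0.74), LOC443338 (0.72), NPVF (0.72) and SLCO2A1 (0.72) came next, and the deviations from group means of these 4 correlated with those of CATHL1B at 0.36 or less, against 0.76 for LTF. LTF stood at 4.73, 4.04 and 3.82 in U70 and at 8.66, 11.05 and 10.81 in U120, a difference of 5.98 (SE 0.69, adjusted p = 1e-04), and was 3.53 higher in T135 than in T70 (adjusted p = 0.0135). At 1 month it stood at 5.85, 5.90 and 5.25. For DEFB no gene came close. Among 899 named genes the highest r was 0.41, for POMC, followed by 0.38 for SPA17 and 0.35 for ITGB6.

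The fourth T100 fetus, a female, was high in all cathelicidin probes. CATHL1B was 4.80 above the mean of the other 3 T100 fetuses, BAC5 4.58, BAC7.5 4.76 and SC5 4.43, and LTF was 3.69 above, while DEFB was -2.03 from theirs. On this array 519 of the tested probes (3.58%) were 2-fold or more above the mean of the other 3 and 191 (1.32%) as far below. The summed signal of the 3 neutrophil markers was 5244 in the highest T100 fetus against a group median of 889, and that of 6 macrophage and monocyte markers 13583 against 5456. Their part in the level of CATHL1B was not tested.

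Of the genes around these peptides, 22 of 37 listed pattern receptors and inducing cytokines were on the array. Between T135 and T70, 4 were higher and 1 lower, beside 21.2% of all tested probes called, with a median difference over the 22 of -0.13 against -0.05 over all tested probes. Between U120 and U70, 2 were higher and 1 lower, beside 12.1% of all, with a median of 0.03 against -0.02. These counts lie near the shares over all probes, and the members called are named as values. TLR5, the receptor of bacterial flagellin, rose by 3.47 between T70 and T135 and by 1.46 between U70 and U120 (adjusted p = 0.0078). TLR3, the receptor of double-stranded RNA, rose by 2.20 and 1.34. IL1A, an inflammatory cytokine, fell by 4.60 and 3.00. NFKBIA, an inhibitor of NF-kappaB, was 1.83 higher in T135 than in T70. CSF2 was 1.30 higher there, but its probe was well above background on only 1 array of the series. None of the 12 listed transcription factors of granulocyte development was on the array under its name.

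Among 6 other antimicrobial proteins that could be tested, LYZ, the lysozyme gene, was 1.27 higher in U120 than in U70 (adjusted p = 0.0191), and LALBA, a milk protein related to lysozyme, gave -1.80 for T135 minus T70 (adjusted p = 0.0098). The others were not called in these comparisons, which called 21.2% of all tested probes in Texel and 12.1% in Ujumqin. The median over the 6 was 0.09 in Texel and 0.01 in Ujumqin. Of the 3 neutrophil markers, LTF alone was called, higher, in both. ITGAM, an integrin chain of neutrophils and macrophages, was 1.33 higher in T70 than in U70 (adjusted p = 0.0429), where all 3 T70 arrays and 1 of 3 U70 arrays were well above background. That comparison called 0.117% of the tested probes, and breed and slide cannot be told apart in it.

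Markers of other cells moved unevenly between the same stages. Of all tested probes, 21.2% were called between T135 and T70 and 12.1% between U120 and U70, and the members called are named as values. Of 7 mast cell and eosinophil markers tested, FCER1A, the alpha chain of the IgE receptor, rose by 5.23 in Texel and 4.75 in Ujumqin, and TPSB2, a mast cell tryptase, by 2.76 and 1.72, while the median of the 7 was -0.13 and -0.24. Of 6 macrophage and monocyte markers, CD80 was lower in Texel (-1.21), and the median of the 6 was 0.11 in Texel and -0.55 in Ujumqin. Of 8 lymphocyte markers, CD247 was lower in T135 than in T70 and CD40 higher in U120 than in U70. The 3 erythroid markers and K38, the 1 epithelial and skin keratin of 20 such markers listed that was on the array, were not called. K38 was well above background on every array, with a signal of 151 to 927. The part of these cells in the levels of CATHL1B and DEFB was not tested.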

How the data were processed

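Total RNA of each muscle was labelled with Cy3 and hybridized to a 1-colour Agilent sheep array. Per the file headers, the authors deposited for each array the spot intensity from Agilent Feature Extraction 10.5 after background subtraction, with no scaling between arrays. Their deposited table holds log2 values, with a median of 8.64 in every column, that correlated with the scanner values of the same array at r = 0.999961 or more. It was used as an alternative, and its direction and scale follow the scanner values.

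Outlier spots were left out, spots of a probe averaged, and the 40 arrays quantile-normalized together. Values under a floor of 1 were raised to it before log2. The 14480 probes well above background on at least 1 array were tested with limma 3.58.1 in R 4.3.3, with Benjamini-Hochberg adjustment over all of them. Breeds were fitted at each stage alone, the 16 Texel arrays together, the 12 Ujumqin arrays before 135 d together, and change of the breed difference and sex over the 31 fetal arrays. The p-values measure the spread between these animals. Levels after birth were described without a test. Steps were tested on simulated data. A fold against a group with no spot well above background was computed against the lowest such signal on each array, or the spot's own level where higher. It is an approximate bound that rests on the level of spots at background.

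Groups, replicate numbers and sex came from the labels. Correlations of same-numbered Texel and Ujumqin fetuses ran from -0.31 to 0.10, so the numbers do not pair animals. The members and the gene lists were chosen with earlier results of these data known. Named are every probe of the rule, genes of the lists that were on the array beside their list's count, and the 8 named genes with the highest r to either member; BAC5, BAC7.5 and SC5 were identified from annotation. Of 683 RefSeq accessions of probes, 662 matched a gene of ARS-UI_Ramb_v3.0. Alternatives changed the scaling, background correction, deposited table, arrays normalized, filter, floor, sex, slide, replicate block, fit, test, fold limit and each array left out.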

Additional observations from a re-analysis of the deposited data

Results flagged for a closer look

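In the group of 4 T100 fetuses, the highest animal stood apart from the others in 3 probes. The gap to its nearest neighbour took up 0.844 of the group's range for CATHL1B (A_70_P051377), 0.833 for BAC5 (A_70_P039656) and 0.886 for SC5 (A_70_P030426), above the 95% critical value of Dixon's test for 4 samples. It was the fourth T100 fetus each time. The other cathelicidin probes did not pass, with 0.807 for CATHL1B (A_70_P051376), 0.827 for BAC5 (A_70_P039657) and 0.782 for BAC7.5. Chance passes this limit in about 1 in 20 groups, and 988 of the tested probes (6.86%) passed it in T100, so that the flags on related probes of 1 animal are a description.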

How the results depend on the processing

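No member probe was called between breeds under the alternatives, except that 1 was by the methods' t-test without adjustment (0 after it). This was DEFB at 100 d, the value by which the study's list chose the probe, so it is not a separate result. Unadjusted limma p-values under 0.05 numbered 2490, 1931, 1924, 1528 and 878 probes from the youngest to the oldest fetal stage. The 4 Texel calls became 2 with normexp background correction and ranged from 2 to 4 with an array left out, the lower count being without T70 replicate 2, T70 replicate 3, T135 replicate 1 or T135 replicate 3. The 4 Ujumqin calls ranged from 4 to 6, the 2 further calls being U100 minus U85 without U85 replicate 3 (adjusted p = 0.0406 and 0.0452), and U85 minus U70 passed with sex as covariate (0.0342 and 0.0338). The 2 probes lower after birth ranged from 2 to 3 with an array left out, the further probe being that of DEFB without the first Ubirth newborn. With the replicate block, the Texel and Ujumqin counts stayed at 4 each and the breed count at 0, and CATHL1B at 100 d was -0.12 and DEFB in T100 minus T85 0.12.

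Directions reversed in small, uncalled differences. With an array left out, the breed difference of CATHL1B (A_70_P051376) ran from -0.12 to 1.66 at 100 d, -0.17 to 1.27 at 120 d and -1.66 to 0.38 at 135 d, and that of A_70_P051377 from -0.10 to 1.29 at 120 d and -1.70 to 0.29 at 135 d. That of DEFB ran from -0.060 to 2.84 at 120 d and was -0.091 at 135 d with sex as covariate. DEFB ran from -0.66 to 1.59 in T85 minus T70, -1.58 to 0.67 in T100 minus T85, -0.65 to 1.41 in T135 minus T120, -0.79 to 0.77 in U85 minus U70, -0.28 to 1.26 in U100 minus U85 and -0.18 to 2.69 in U135 minus U120. The cause was not tested. With 3 arrays per group and an SD near 1.7, differences of 1 or 2 log2 units could not be resolved for either gene. Normalizing the 31 fetal arrays alone gives no value after birth.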
